A study of Mus musculus with 6 samples.

Results

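The genes described here encode voltage-gated sodium channels, voltage-gated calcium channels and potassium channels, with their accessory subunits. They were chosen by gene symbol from the table of expression values: protein-coding genes whose symbol begins with Scn and a number followed by a or b, with Cacna, Cacnb or Cacng, or with Kcn. Of 22081 genes in the table, 15060 were protein-coding, and 99 of those were taken by symbol, with 1 that fits left out. With a mean of at least 5 normalized counts over the 6 libraries, 88 remained, and these 88 are called the channel genes. They comprised 11 sodium channel genes, 19 calcium channel genes and 58 potassium channel genes.

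RNA-seq was performed on total RNA of muscle stem cells (MuSCs), the Pax7-positive stem cells that lie along skeletal muscle fibres, sorted freshly from limb and trunk muscle of adult C57BL/6 mice. The 3 Taf4asKO libraries came from mice with floxed Taf4a alleles and a Pax7CreERT driver, given tamoxifen, so that Taf4a is deleted in cells that express Pax7. The 3 control libraries came from littermates that also had both Taf4a alleles floxed, and the sources describe controls without the Cre allele as well as controls with it. Taf4a, listed as Taf4, encodes a subunit of TFIID, the general factor that positions RNA polymerase II at core promoters. Cells were depleted of SCA1-, CD45- and CD31-positive cells and sorted for integrin α7 or a Pax7-driven reporter. The comparison asks how the channel genes differ between control and Taf4asKO MuSCs. The labels do not say whether the libraries of a group came from separate animals, so the p-values measure the spread between these samples.

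Sodium and calcium channels of these families open when the membrane depolarizes and let Na+ or Ca2+ into the cell. Each has a large pore subunit, named α for sodium and α1 for calcium channels, that sets which ion passes and when, and smaller partners that adjust gating and delivery to the membrane. Potassium channels let K+ out and pull the membrane back towards rest. They fall into voltage-gated channels, inward rectifiers, tandem-pore-domain leak channels and channels opened by intracellular Ca2+ or Na+. In the mature muscle fibre the sodium channel Scn4a carries the action potential and the calcium channel Cacna1s couples it to contraction.

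Normalized counts totalled between 12338676 and 14551732 per library, of which mitochondrial genes took 11.1% to 20.7%. Libraries of the same group differed by more than sampling noise in every pair (chi-square per degree of freedom between 3.88 and 41.7), and each was counted as a sample of its own. Taf4 itself was listed at 613, 534 and 478 normalized counts in the control libraries and 631, 565 and 574 in Taf4asKO, a log2 difference of 0.13 (95% interval -0.14 to 0.40, adjusted p = 0.524). The total for the gene was thus not lower in the libraries labelled Taf4asKO. The table sums all exons while the deletion removes a stretch of them, single exons were not analysed here, and the directions given below rest on the labels alone. The muscle stem cell markers were present in all libraries, with Pax7 between 10363 and 13007 normalized counts.

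Channel genes changed in both directions, and the largest changes were falls. A gene was called changed when limma gave an adjusted p under 0.05 and the fold change was at least 1.3. By that rule 24 of the 88 channel genes (27.3%) changed, 10 higher and 14 lower in Taf4asKO. Among all 18562 genes tested, 12.6% were called, 5.93% higher and 6.71% lower. Called channel genes were mostly those with ample counts: of the 39 with a mean of at least 50, 6 rose and 13 fell, against a background of 17.7% called, 8.63% higher and 9.04% lower at that level. Among the 24 channel genes with a mean under 20, the number called by limma was 0, with 5 at an unadjusted p under 0.05. In 42 of the 88 the values of both groups did not overlap, against 33.0% of all genes tested. The median log2 fold change was 0.18 over the channel genes and 0.00 over all genes tested, whereas the median absolute change was 0.71 against 0.31.

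With the replicate number as a block, 33 channel genes were called, 17 higher and 16 lower, against 18.1% of all genes. Leaving out any single Taf4asKO library left 1 to 3 rises and 11 to 12 falls called. Without control replicate 1, 2 or 3 there were 11, 13 and 11 rises. Among the 12 genes called in every alternative were the rise of Scn7a and the falls of Scn11a, Cacna1d, Cacna1a, Cacna2d4, Kcne4, Kcnab2, Kcnk7, Kcnn3 and Kcnma1. In RNA from sorted cells in bulk, fewer cells of a type and less RNA per cell cannot be told apart.

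**Figure D1:**
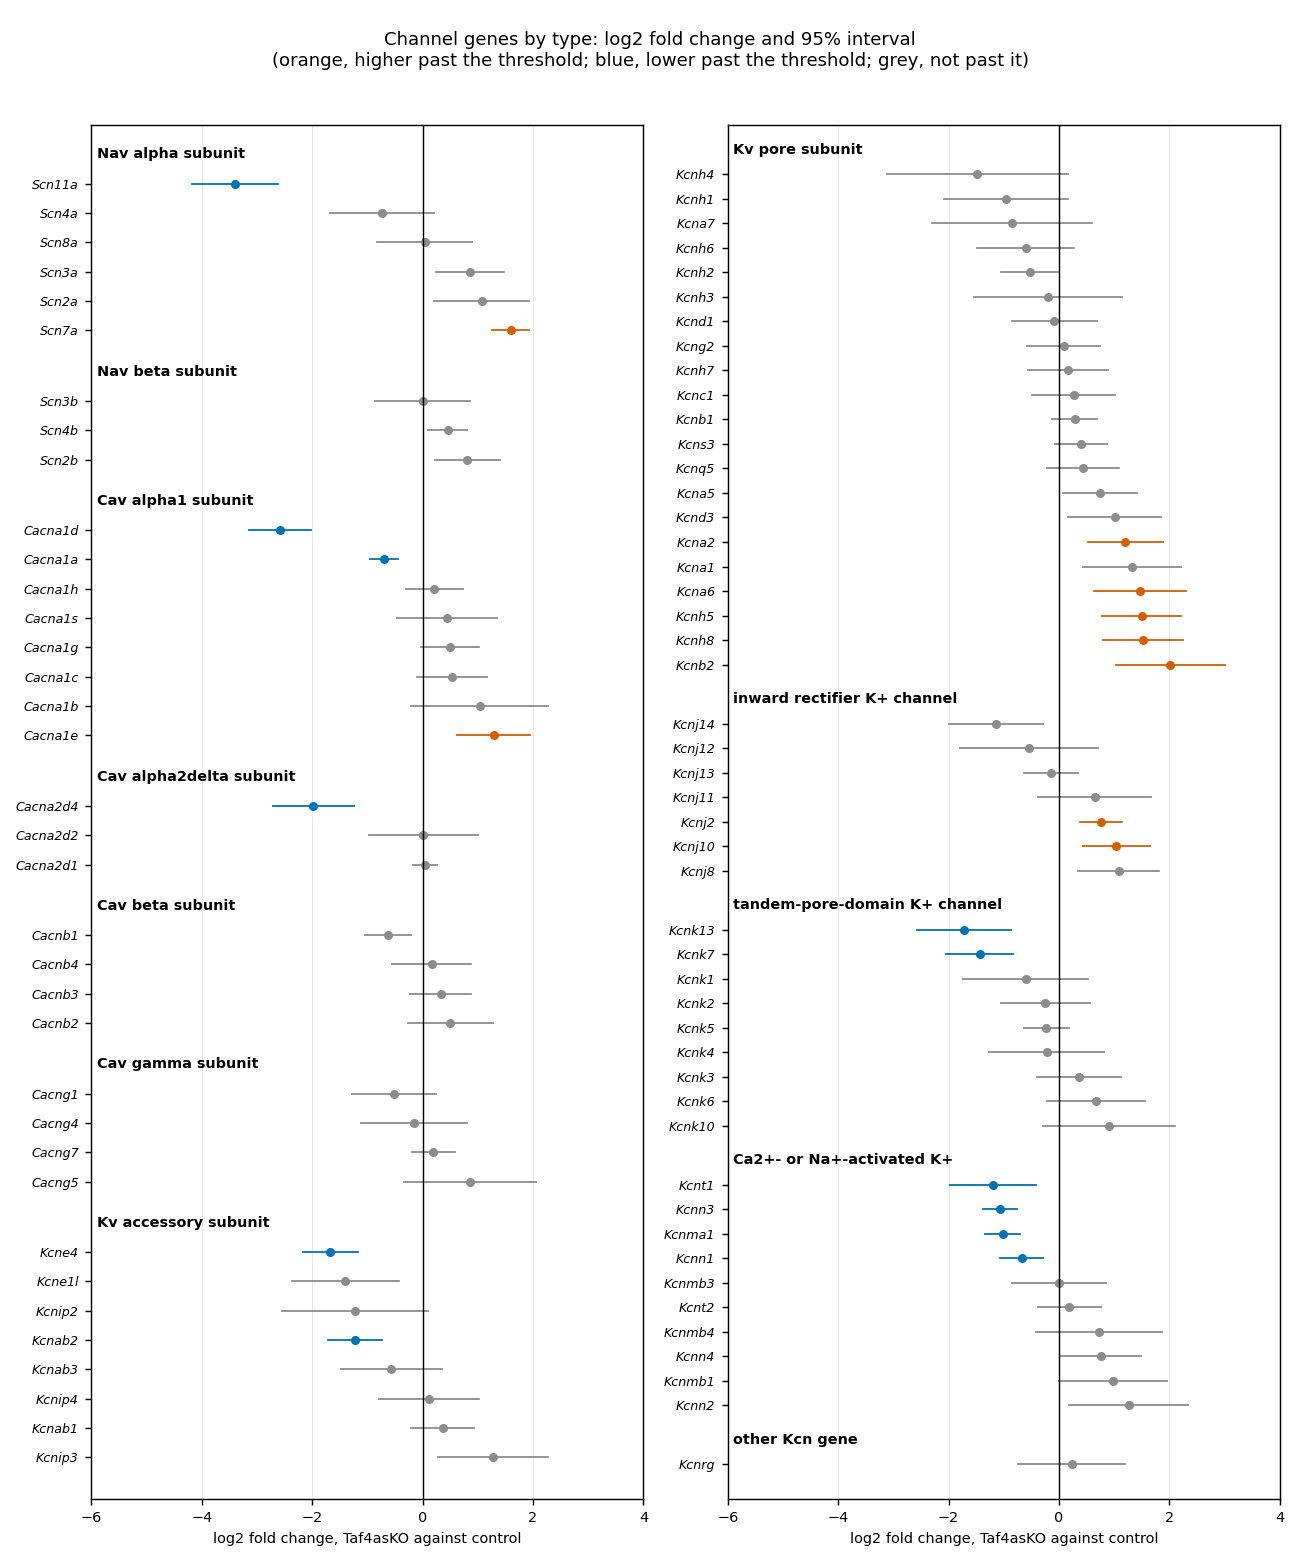
Log2 fold change of the channel genes reported here in Taf4asKO against control (point) with its 95% interval (line), grouped by channel type; orange marks genes higher and blue genes lower past the threshold. The falls reach -3.40 (Scn11a) and the rises 2.02 (Kcnb2), and of the 10 rises over all 88 genes, not all of them drawn, 6 are in the largest type, the 23 pore subunits of voltage-gated potassium channels (Kv).

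Among the pore subunits of sodium channels, genes changed strongly in both directions. Scn11a, a sodium channel known from pain-sensing neurons (chr9:119753759-119825456 in mm10), was listed at 128, 131 and 68 in control. In Taf4asKO it had 13, 7 and 8, a fall of 10.5-fold (log2 -3.40 ± 0.35, SE, n = 3 per group, adjusted p = 0.000443), and the groups were far apart. Scn7a moved the other way. This gene (chr2:66673425-66784914) encodes an atypical sodium channel that responds to the sodium concentration and is known from glia. Its values were 466, 619 and 405 in control and 1601, 1396 and 1455 in Taf4asKO, again without overlap (3.03-fold higher, 95% interval 1.27 to 1.93 on the log2 scale, adjusted p = 0.000234). The direction and the call of both genes held in all 14 alternatives, with log2 changes of -3.70 to -3.23 for Scn11a and of 1.46 to 1.77 for Scn7a.

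The promoter stretches of Scn11a and Scn7a are shown because these α genes moved in opposite directions. The sequences are the 120 bases before the start site in RefSeq (GRCm38.p6), both read on the minus strand, at chr9:119825457-119825576 and chr2:66784911-66785030. Neither holds CCAAT or its reverse complement ATTGG, the box bound by the factor NF-Y, within these bases.
Scn11a: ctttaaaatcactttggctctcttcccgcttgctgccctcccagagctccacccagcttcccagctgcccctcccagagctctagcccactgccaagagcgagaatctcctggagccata
Scn7a: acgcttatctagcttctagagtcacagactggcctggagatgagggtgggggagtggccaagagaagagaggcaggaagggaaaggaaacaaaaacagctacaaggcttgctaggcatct

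Of the sodium channel α genes, 4 did not pass the threshold. Scn3a, a brain sodium channel, had 33, 42 and 64 in control and 66, 97 and 86 in Taf4asKO (log2 0.86 ± 0.28, adjusted p = 0.0684), and passed with the replicate block (adjusted p = 0.0242) and without control replicate 3. Its neighbour Scn2a had 7, 17 and 17 in control and 27, 25 and 32 in Taf4asKO (log2 1.07 ± 0.39, adjusted p = 0.0987). For both genes the groups did not overlap. Scn8a lay between 19 and 47 in all libraries. Scn4a, the channel of the mature fibre, was barely detected, with 4 to 11 normalized counts in each library.

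None of the 4 sodium channel β genes passed the threshold with limma; 2 of them had an unadjusted p under 0.05, and 1 was called with the block. The β subunits are single-span membrane proteins that adjust gating and act in cell adhesion. Scn4b was higher in each Taf4asKO library, at 126 to 137 against 90 to 100 (log2 0.45, adjusted p = 0.0874). Scn2b had 27 to 41 in control and 51 to 76 in Taf4asKO, and passed only with the replicate block (log2 0.81, adjusted p = 0.0690 without and 0.0364 with it).

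Among the 8 calcium channel α1 genes, 2 fell and 1 rose. Cacna1d, an L-type channel that opens at comparatively negative voltages (chr14:30039941-30491156), had 480, 525 and 782 normalized counts in the control libraries and 83, 143 and 75 in Taf4asKO. The highest Taf4asKO library was far below the lowest control, with a log2 fold change of -2.58 ± 0.26 (6.00-fold lower, adjusted p = 0.000343). Cacna1a, the P/Q-type channel of nerve endings, had 495, 587 and 532 in control and 312, 333 and 348 in Taf4asKO. Its fall was smaller but tight, with a log2 fold change of -0.70 ± 0.12 (adjusted p = 0.00431). Cacna1e, the R-type channel, was low throughout. It had 21, 14 and 23 in control and 46, 59 and 40 in Taf4asKO (log2 1.29 ± 0.30, adjusted p = 0.0200), and its call was lost without any single Taf4asKO library (adjusted p up to 0.109). Cacna1d overlaps Chdh and Dcp1a on the opposite strand, and whether the counting used strand is not stated.

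The promoter of Cacna1d is shown as that of the calcium channel gene with the largest fall. These are the 120 bases before its RefSeq start at chr14:30491157-30491276 on the minus strand, with the CCAAT box, 92 bases before the start, in capitals.
Cacna1d: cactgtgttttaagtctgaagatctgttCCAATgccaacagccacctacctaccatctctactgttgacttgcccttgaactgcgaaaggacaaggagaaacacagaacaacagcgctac

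The T-type gene Cacna1g and the L-type gene Cacna1c were higher on average but overlapped between the groups. Cacna1g had 214, 258 and 385 in control and 286, 452 and 455 in Taf4asKO (log2 0.49 ± 0.24, adjusted p = 0.204). Cacna1c had 160, 237 and 373 against 255, 409 and 411 (adjusted p = 0.253). In each of the 3 same-numbered pairs the Taf4asKO value was the higher for both genes, and with the replicate block both passed (adjusted p = 0.0274 and 0.0264). Cacna1s, the channel of excitation-contraction coupling, stayed between 13 and 42 in all libraries. Because each α1 subunit forms a pore by itself, the make-up of the family was compared per kilobase of exon, which removes the effect of gene length. Per kilobase, the α1 genes summed to 160 ± 28.7 normalized counts in control and 124 ± 21.5 in Taf4asKO (SD, n = 3). The share of Cacna1d in that sum was 29.4% ± 3.86 and 6.38% ± 1.69, while that of Cacna1g was 17.4% ± 2.57 and 31.5% ± 3.32. No further test was made on the shares, since they are built from the values already tested.

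**Figure D2:**
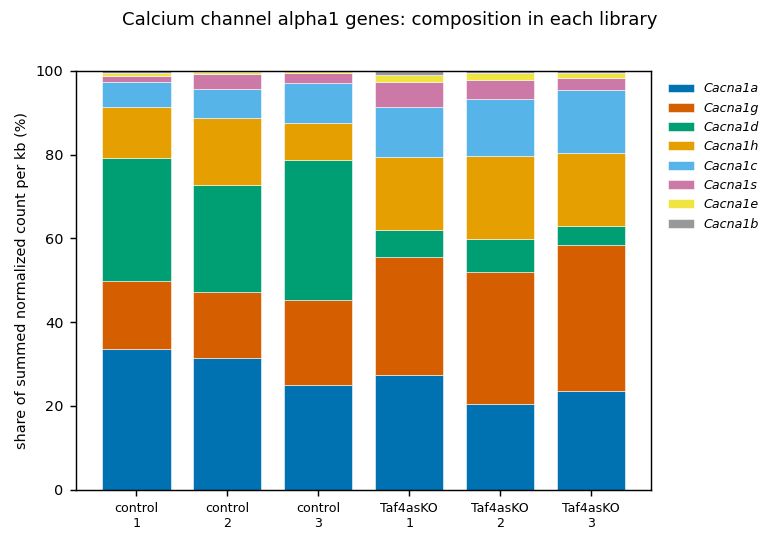
Share of each calcium channel α1 gene in the summed normalized count per kilobase of exon of the 8 genes, in percent (vertical axis); each bar is 1 library, with control on the left and Taf4asKO on the right. The mean share of Cacna1d falls from 29.4% to 6.38%, while that of Cacna1g is 17.4% in control and 31.5% in Taf4asKO.

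Of 11 genes for accessory calcium channel subunits, 1 was called. The α2δ subunits sit outside the membrane and raise the number of channels at the surface. Cacna2d4, best known from photoreceptors, had 122, 258 and 129 normalized counts in the control libraries and 58, 29 and 37 in Taf4asKO (log2 -1.98 ± 0.33, adjusted p = 0.00455). It overlaps Lrtm2 on the opposite strand. By contrast Cacna2d1, the α2δ subunit of skeletal muscle and the most abundant calcium channel gene per kilobase in both groups, had 817, 835 and 900 in control and 838, 933 and 874 in Taf4asKO. Its log2 difference was 0.05 with a 95% interval of -0.17 to 0.27, a narrow range at this depth.

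No β or γ gene of the calcium channels passed the threshold with limma. At an unadjusted p under 0.05 there was 1 of 4 β genes and 0 of 4 γ genes, and with the replicate block the counts were 1 and 0. The β subunits bind α1 inside the cell, and Cacnb1 is the form of skeletal muscle. Cacnb1 had 190, 135 and 188 in control and 122, 96 and 111 in Taf4asKO, without overlap (log2 -0.63 ± 0.19, adjusted p = 0.0521). It passed with the block (adjusted p = 0.0176), with a mean limit of 10, and without control replicate 2. Of the γ genes, only Cacng7 had ample counts, 122, 182 and 147 in control against 163, 183 and 164 in Taf4asKO (log2 0.19 ± 0.17, adjusted p = 0.505).

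Rises prevailed among the pore subunits of voltage-gated potassium channels, where 6 of 23 rose and 1 fell. The Shaker-type genes Kcna1 and Kcna2, known from myelinated axons, where they limit excitability, had the highest counts. Kcna2 had 266, 717 and 615 in control and 943, 1277 and 1180 in Taf4asKO (log2 1.20 ± 0.31, adjusted p = 0.0298). Control replicate 1 was much the lowest, and even the lowest Taf4asKO library was above the highest control. Kcna6 followed the same order, with 31, 96 and 84 against 137, 220 and 180 (log2 1.46 ± 0.38, adjusted p = 0.0304). Kcna1 had 143, 546 and 433 in control and 681, 813 and 959 in Taf4asKO, also without overlap. Its log2 change of 1.32 ± 0.40 missed the threshold (adjusted p = 0.0546), which it passed with the replicate block (adjusted p = 0.00273), under total-count scaling, with limma-voom, without a filter on the mean, and without control replicate 1 or 2. The calls of Kcna2 and Kcna6 were lost without any single Taf4asKO library (adjusted p up to 0.120 and 0.131). Kcna5 had 44, 64 and 46 against 53, 114 and 102 (adjusted p = 0.139), and passed with the block (adjusted p = 0.0449) and without Taf4asKO replicate 1.

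Further rises among these pore genes were of genes with low counts. Kcnb2, a delayed rectifier, had 20, 6 and 15 in control and 75, 35 and 56 in Taf4asKO (log2 2.02 ± 0.45, adjusted p = 0.0165). Kcnh5 and Kcnh8, of the ether-à-go-go group, rose by 1.50 ± 0.32 and 1.52 ± 0.33 on the log2 scale. Their values were 8 to 13 against 30 to 36, and 14 to 28 against 45 to 73, respectively (adjusted p = 0.0147 and 0.0144). These 3 calls depended on single libraries: Kcnh5 lost its call without any single Taf4asKO library, Kcnb2 without Taf4asKO replicate 1 or 3, and Kcnh8 without Taf4asKO replicate 2 or 3. The highest adjusted p in these fits was 0.0837 for Kcnh5, 0.0757 for Kcnb2 and 0.0800 for Kcnh8.

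Per kilobase of exon, Kcna1 and Kcna2 made up a larger part of the summed level of the 23 pore genes in Taf4asKO on average. Their shares were 18.6% ± 8.66 and 10.7% ± 3.64 in control against 31.3% ± 2.98 and 17.5% ± 1.47 in Taf4asKO. The sum over the 23 genes was 404 ± 57.7 per kilobase in control and 543 ± 47.0 in Taf4asKO.

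Both called genes among the 8 accessory subunits of voltage-gated potassium channels fell. Kcne4, a membrane-spanning partner that damps several potassium channels, had 220, 355 and 426 in control and 101, 97 and 103 in Taf4asKO. The Taf4asKO libraries were close together while the controls were spread, and the log2 change was -1.67 ± 0.22 (adjusted p = 0.00148). Kcnab2, a cytoplasmic β subunit of Shaker-type channels, had 87, 128 and 99 against 38, 45 and 49 (log2 -1.22 ± 0.22, adjusted p = 0.00669). It overlaps Nphp4 on the opposite strand. Kcne1l, a relative of Kcne4, went from 12, 29 and 24 to 5, 7 and 10 (adjusted p = 0.0615), and passed with the block (adjusted p = 0.0299) and without control replicate 1.

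Among the 7 inward rectifiers 2 rose. Kcnj2, the channel that holds muscle cells near the potassium equilibrium potential, had 129, 166 and 198 normalized counts in the control libraries and 267, 298 and 265 in Taf4asKO (log2 0.77 ± 0.17, adjusted p = 0.0167). Kcnj10, the main inward rectifier of glia, had 48, 109 and 90 against 162, 162 and 160 (log2 1.04 ± 0.27, adjusted p = 0.0313). Its Taf4asKO values were nearly equal while control replicate 1 was lowest of the controls. Kcnj8, the ATP-sensitive channel of vascular mural cells, had 49, 133 and 130 in control and 195, 216 and 195 in Taf4asKO. The groups did not overlap, and at a log2 change of 1.08 ± 0.33 the adjusted p was 0.0567 without and 0.0103 with the replicate block. Kcnj8 was also called without any single control library, under total-count scaling, with limma-voom and without a filter on the mean. The calls of Kcnj2 and Kcnj10 were lost without any single Taf4asKO library (adjusted p up to 0.0896 and 0.111).

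The promoters of Kcnj2 and Kcnj10 are shown as those of the rectifiers that rose, and both hold a CCAAT box or its reverse complement, in capitals. They cover the 120 bases before the RefSeq start on the plus strand, at chr11:111066044-111066163 and chr1:172341090-172341209. The box of Kcnj2 begins 71 bases before the start, and those of Kcnj10 begin 104 and 67 bases before it.
Kcnj2: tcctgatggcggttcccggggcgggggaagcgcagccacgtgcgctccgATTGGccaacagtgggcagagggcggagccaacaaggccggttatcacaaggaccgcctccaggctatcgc
Kcnj10: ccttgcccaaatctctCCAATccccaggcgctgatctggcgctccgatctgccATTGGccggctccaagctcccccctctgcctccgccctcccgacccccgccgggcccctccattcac

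Of the 9 tandem-pore-domain leak channels, 2 fell. Kcnk13 had 75, 160 and 55 in control and 34, 19 and 26 in Taf4asKO (log2 -1.73 ± 0.38, adjusted p = 0.0170), and lost its call without Taf4asKO replicate 2 or 3 (adjusted p up to 0.0802). Kcnk7, which has not been shown to carry current by itself, had 50, 44 and 60 against 15, 21 and 19 (log2 -1.44 ± 0.27, adjusted p = 0.00844). Kcnk5, an acid-sensitive leak channel and the most abundant of this type, lay at 126, 143 and 163 in control and 150, 116 and 105 in Taf4asKO, with overlap (log2 -0.23 ± 0.19, adjusted p = 0.460).

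All called genes among the potassium channels opened by Ca2+ or Na+ fell, 4 of 10. The 10 include the accessory subunit genes Kcnmb1, Kcnmb3 and Kcnmb4, none of which was called. Kcnma1, the large-conductance calcium-activated channel (chr14:23289431-24004859), had 1185, 1635 and 1659 in control and 644, 794 and 752 in Taf4asKO (log2 -1.02 ± 0.14, adjusted p = 0.00211). Kcnn3, a small-conductance calcium-activated channel, had 794, 641 and 662 against 340, 375 and 286 (log2 -1.07 ± 0.14, adjusted p = 0.00126). The related Kcnn1 had 117, 133 and 132 against 90, 69 and 80 (log2 -0.68 ± 0.18, adjusted p = 0.0330), a call lost without control replicate 3 or any single Taf4asKO library (adjusted p up to 0.143). Kcnt1, opened by intracellular Na+, had 90, 152 and 237 in control and 50, 55 and 95 in Taf4asKO. It was the only called channel gene whose groups overlapped, and its call (log2 -1.20 ± 0.35, adjusted p = 0.0488) was lost under total-count scaling, with limma-voom, with a pseudocount of 0.1, and without control replicate 2 or 3 or Taf4asKO replicate 1 or 2 (adjusted p up to 0.166). The other 6 genes of this type, among them Kcnt2 with 179 to 426 normalized counts, did not pass the threshold. Per kilobase, the type summed to 241, 249 and 295 in control and to 161, 181 and 180 in Taf4asKO.

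The promoter of Kcnn3 is shown as that of the fallen gene of this type with the smallest adjusted p. These are the 120 bases before its RefSeq start at chr3:89520044-89520163 on the plus strand, with a CCAAT box 72 bases before the start in capitals.
Kcnn3: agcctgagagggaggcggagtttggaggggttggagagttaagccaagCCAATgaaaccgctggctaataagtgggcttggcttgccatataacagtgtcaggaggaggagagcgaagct

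**Figure D3:**
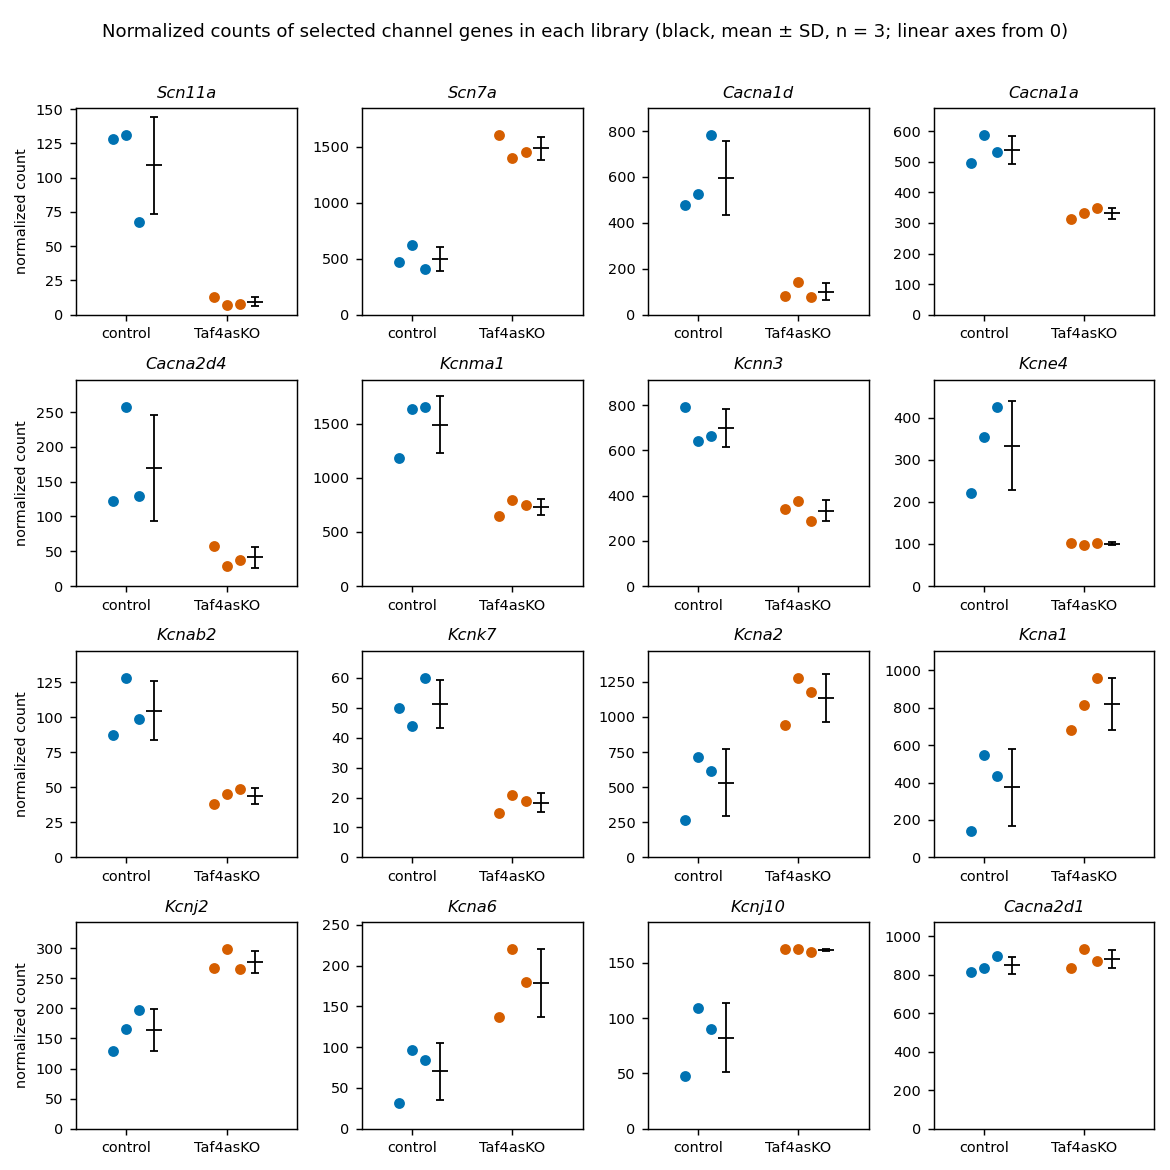
Normalized counts of selected channel genes in each library, on linear axes from 0; blue points are the 3 control and orange points the 3 Taf4asKO libraries, with the mean and SD in black. The groups are apart for all genes shown except Cacna2d1, where 817 to 900 in control overlaps 838 to 933 in Taf4asKO.

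The last of the 88 genes, Kcnrg, encodes a regulator of potassium channels and had 14 to 41 normalized counts in all libraries, without a difference past the threshold (log2 0.23 ± 0.43, adjusted p = 0.777). The 11 further genes with the symbol of a channel but a mean under 5 were not tested in the comparison. Just inside the limit was Kcna7 with a mean of 5.33 and just outside it Kcns1 with 4.67. Scn10a was listed at 5, 7 and 8 in control and 2, 3 and 1 in Taf4asKO. The 64 channel genes that did not pass the threshold had 95% intervals with a median half-width of 0.84 on the log2 scale. Differences within such an interval were not excluded. With limma, 14 of the 64 had an unadjusted p under 0.05.

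As a level per kilobase of exon, Kcne4 stood at 126 in control and 37.8 in Taf4asKO, and Kcnma1 at 87.9 and 43.0. Scn7a stood at 67.7 per kilobase in control and 202 in Taf4asKO, and Kcna1 at 78.2 and 171.

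Markers of other cell types were examined next, since the study reports incomplete purity of the sorted cells on reanalysis. The summed values of 10 Schwann and glial genes were 1969, 4557 and 3618 in control and 5727, 7149 and 6599 in Taf4asKO. Of the 10, 6 rose, or 8 with the replicate block. The defining genes were present in all libraries: Sox10 had 185, 534 and 420 in control and 734, 1016 and 900 in Taf4asKO. Control replicate 1 was the lowest library, as for the Kcna genes. It was also the lowest control library for 8 of the 14 falls (57.1%), 5 of the 10 rises and 34 of the 64 other channel genes (53.1%), against 32.2% of all genes tested. Relative to the summed glial list, 8 of the 10 channel genes that rose overlapped between the groups. Kcna2 amounted to 13.5% to 17.0% of that sum in control and 16.5% to 17.9% in Taf4asKO, Kcnj10 to 2.39% to 2.49% and 2.27% to 2.83%, and Scn7a to 11.2% to 23.7% and 19.5% to 28.0%. The rises that stayed apart were Kcna6, at 1.57% to 2.32% against 2.39% to 3.08%, and Kcnh8, at 0.50% to 0.77% against 0.79% to 1.11%. Relative to the summed muscle stem cell list, and to the summed smooth muscle and pericyte list, all 10 rises stayed apart. The glial sum was itself higher in each Taf4asKO library, so that division by it lowers every channel gene in that group, the rises included. Overlap of a rise on this scale was favoured by the division itself, so no conclusion on its source was drawn. The falls were not read on this scale. The part of glial RNA in the rises was not tested.

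**Figure D4:**
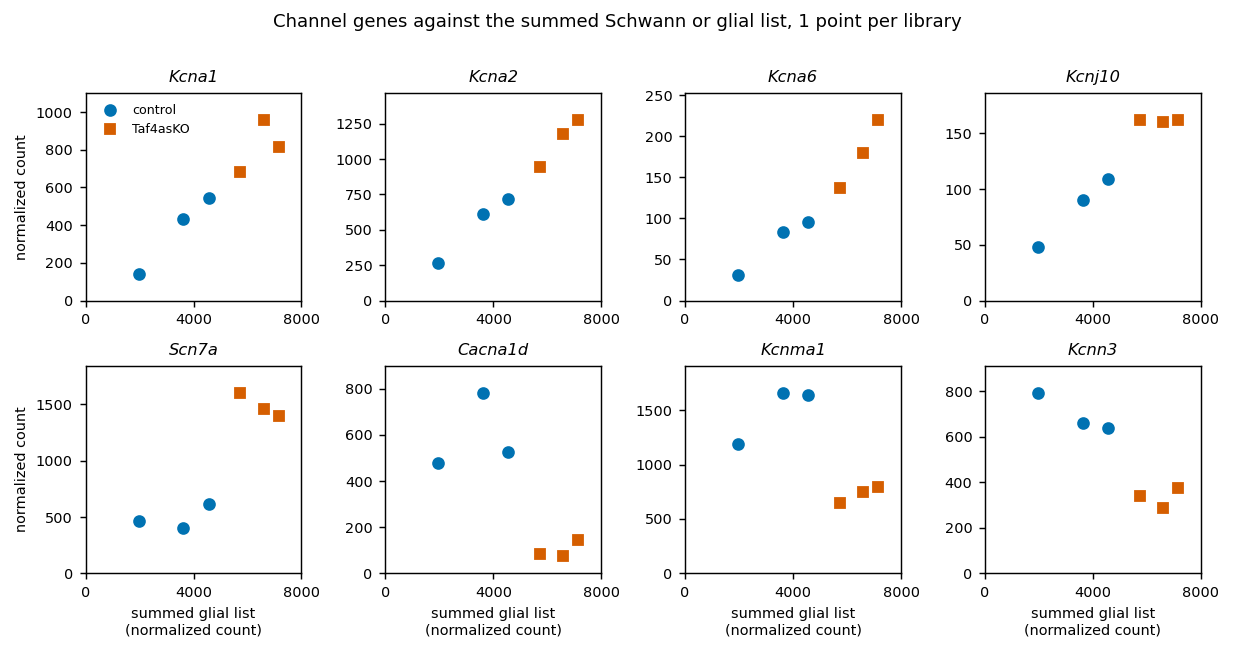
Normalized counts of 8 channel genes (vertical axes, from 0) against the summed normalized counts of 10 Schwann and glial genes (horizontal axes), 1 point per library; blue circles are control and orange squares Taf4asKO. Kcna1, Kcna2 and Kcna6 are lowest in the control library with the lowest glial sum (1969), which is also the lowest control for Cacna1d and Kcnma1. Cacna1d, Kcnma1 and Kcnn3 are lower in all 3 Taf4asKO libraries, where the glial sum is 5727 to 7149.

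The smooth muscle and pericyte list summed to 36342 to 39731 in control and 40368 to 40458 in Taf4asKO, with 2 of 8 genes higher. Most of that sum came from Notch3 and Des, at log2 -0.33 and 0.26, neither past the threshold. Rgs5, a marker of pericytes, had 1153, 2403 and 2426 in control and 3857, 4237 and 3755 in Taf4asKO (log2 1.06 ± 0.24, adjusted p = 0.0185). Myh11, the smooth muscle myosin, had 2537, 3533 and 4021 against 4141, 6010 and 6082 (log2 0.69 ± 0.19, adjusted p = 0.0388). Of the 8 genes, 6 had a positive and 2 a negative change. Acta2 had 4556, 6801 and 3553 in control and 4414, 4064 and 3241 in Taf4asKO (log2 -0.31 ± 0.21, adjusted p = 0.365). Pdgfrb and Abcc9 stood at log2 0.85 and 0.53 (adjusted p = 0.113 and 0.0917), and passed with the replicate block (adjusted p = 0.0111 and 0.00890). Kcnj8, the channel of mural cells, stood at log2 1.08 beside them. The part of mural cell RNA in that value was not tested. The endothelial list summed to 945 to 1429 against 1553 to 2046, with 0 of 8 genes called by limma and 6 at an unadjusted p under 0.05. The immune list, of which 3 of 8 genes were in the table, summed to 422 to 538 against 666 to 924, with 0 called and 1 at an unadjusted p under 0.05. Of the muscle fibre list 0 of 8 were called and 0 had an unadjusted p under 0.05, at 1251 to 4041 against 2342 to 2903. Of the fibro-adipogenic list 1 of 9 rose and 3 fell, at 70423 to 100217 against 58162 to 82311. With the replicate block 5 of these 9 rose and 3 fell. The block also called 4 endothelial, 4 smooth muscle or pericyte and 1 immune gene, all higher, and 0 muscle fibre genes. The muscle stem cell list itself summed to 40548 to 43183 and 40837 to 43041, with 2 of 10 genes higher and 3 lower, or 4 lower with the block. Neuronal markers were near 0: of 8 listed genes, 4 were in the table, and they summed to 10 to 22 in control and 20 to 30 in Taf4asKO.

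Some channel genes lie near each other in the genome. Of 15 pairs of neighbours within 1000 kb, 10 had the same sign of change, which was not tested. Over all 88 genes, 53 had a positive and 35 a negative change. Kcna5, Kcna1 and Kcna6 on chromosome 6, and Scn3a, Scn2a and Scn7a on chromosome 2, where Scn7a lies 906 kb from Scn2a, were each higher on average in Taf4asKO, with 1 of 3 called in each cluster. Cacna1c and Cacna2d4, 40.1 kb apart on chromosome 6, had opposite signs, at log2 0.53 and -1.98.

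Promoter sequences of 63 of the 88 channel genes were in the RefSeq set. CCAAT, on either strand and within 250 bases before the start, occurred in 18 of the 63 (28.6%), against 35.7% of the promoters of all 11545 tested genes with a sequence. It occurred in 2 of 8 genes that rose, 3 of 9 that fell and 13 of 46 that did not pass the threshold. TATAAA, searched in the same way, was found in 2 of the 63 (3.17%), against 6.56% of all. The 2 motifs do not overlap each other in their letters, and a match is only a description of the sequence.

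Genes of the wider ion-handling machinery, in a list of 100 tested genes outside the channel families, changed in 24 cases, 10 higher and 14 lower. Their median level was 232 normalized counts, and 17.7% of all genes with a mean of at least 50 were called, against which the counts of the smaller lists also stand. Of the sodium-potassium pump genes 2 of 9 rose and 2 fell, and of the calcium pumps and exchangers 1 of 14 rose and 2 fell. Of genes for calcium release and store entry 1 of 16 changed, a fall. The chloride channels and cotransporters had 1 of 19 higher and 1 lower, and the other cation channels 1 of 19 higher and 2 lower. Channel partners and regulators held the most calls, with 5 of 23 higher and 6 lower.

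Among the rises of that list, Atp1b1, a β subunit of the sodium-potassium pump, had 27, 29 and 31 in control and 102, 100 and 117 in Taf4asKO (log2 1.84 ± 0.21). Trpm3, a heat- and steroid-sensitive cation channel, had 76, 233 and 238 against 356, 519 and 515 (log2 1.49 ± 0.38). Unc80, a subunit of the sodium leak channel complex, had 99, 140 and 189 against 245, 415 and 375 (log2 1.28 ± 0.25). Among the falls, Dpp6, a partner of voltage-gated potassium channels, went from 124, 282 and 77 to 21, 29 and 16 (log2 -2.65 ± 0.42). Ryr3, a calcium release channel, had 956, 285 and 1441 against 213, 219 and 138 (log2 -1.97 ± 0.47). Atp2a1, the calcium pump of fast fibres, had 977, 2168 and 870 against 364, 453 and 417 (log2 -1.58 ± 0.28). None of these 6 genes overlapped between the groups, all 6 passed the threshold, and control libraries were spread more widely than Taf4asKO libraries for Ryr3 and Atp2a1. The call of Trpm3 was lost without any single Taf4asKO library, that of Unc80 without Taf4asKO replicate 2 or 3, and that of Ryr3 without control replicate 1 or 3, without any single Taf4asKO library and with limma-voom, with adjusted p up to 0.113, 0.0609 and 0.0935.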

How the data were processed

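Total RNA-seq of freshly sorted MuSCs was analysed in 3 control and 3 Taf4asKO libraries, made with a stranded low-input kit from 10 ng of RNA of 90000 sorted cells. According to the study's methods and the submitters' processing notes, the authors trimmed reads with Trimmomatic 0.39, aligned them to mm10 with STAR 2.6.0c, dropped reads with several alignments or several genes, counted over exons with featureCounts 1.6.0 and normalized with DESeq2 1.14.1. The deposited values are a score: the reads of each gene over the size factor of its library, rounded to whole numbers, called normalized counts here. The rounding was inferred from the values. Whether counting used strand is not stated in the sources used here. Of the 88 channel genes, 45 overlap a gene on the opposite strand, 11 of them called changed.

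Genes with a mean of at least 5 (18562) entered the test, limma 3.58.1 under R 4.3.3 with a trended eBayes step (two-sided) on log2(value + 1), with Benjamini-Hochberg adjustment over all of them. Fold changes are on that scale, which understates changes of low genes. Recovery was tried in simulated data over 18562 genes, where 157 of 200 changed genes were recovered with 8 false calls. The simulation gave all genes the same dispersion, without effects of library or replicate and without small changes. Its dispersion was not fitted to these libraries, so these rates need not hold for them. Levels per kilobase use the exon length of GENCODE M21, and sequences are from RefSeq. The precision rests on 3 libraries per group, and intervals cover the spread between them. Number of value columns without a sample: 0.

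The members, gene lists and tests were chosen with earlier results of these data known. The names in the text follow a rule: Taf4, called channel genes with a mean of at least 20, the 10 of highest mean, the gene of highest mean in each type, and the 3 largest changes in each direction among called ion-handling genes with a mean of at least 50. Any other gene named was picked with its values in view. The rule by symbol leaves out 1 gene that fits, and 4 of the 88, called ones among them, are counted but not reported here by name. Replicate numbers come from the sample titles of both groups. Libraries with equal numbers deviated together from the means of their groups, with correlations of 0.235, 0.126 and 0.150 across genes, so a fit with the number as a block was made beside the main one. Other alternatives were upper-quartile and total-count scaling, limma-voom, no filter, a mean of at least 10, a pseudocount of 0.1, no fold limit and leaving out each library.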

Additional observations from a re-analysis of the deposited data

How the results depend on the processing

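Under the 14 alternatives, the 38 named genes gave 532 values, of which 470 kept direction and side of the threshold, 51 lost the call, 9 gained it and 2 changed sign. The changes of sign were those of Kcnrg, which was not called, to -0.12 without control replicate 2 and to -0.06 without Taf4asKO replicate 1, in a range of -0.12 to 0.60 over the fits without a library. The replicate block raised the channel genes called higher from 10 to 17 and gained 9 genes in all (Cacna1c, Cacna1g, Cacnb1, Kcna1, Kcna5, Kcne1l, Kcnj8, Scn2b and Scn3a), with 0 lost. It changed no other call among the channel genes. Leaving out each library in turn gave 13 to 27 channel genes called, 1 to 13 higher and 11 to 16 lower, and 14 to 32 related ion-handling genes in place of 24. The lowest counts came without Taf4asKO replicate 2 or 3. Of all genes, 960 to 1295 were called without a Taf4asKO library and 1707 to 3121 without a control library, against 2347 with all, and the cause was not tested. Scaling, filter, pseudocount and fold limit gave 23 to 26 channel genes called, 10 to 12 higher and 13 to 15 lower. Few genes with low counts were called: with a mean under 20, limma called 0 of 24 channel genes, and 1 with the block. The effect of depth was not tested.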
